A study of Saccharomyces cerevisiae with 4 samples.

Results

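The mating-type-specific genes of budding yeast were read in a chromatin immunoprecipitation study of RNA polymerase II. The set was fixed by name as 8 genes: STE2, STE6, BAR1, MFA1, MFA2, ASG7 and AGA2, which are a-specific, and STE3, which is alpha-specific. Each was measured through the array probes that the files annotate as lying inside the gene. Such probes existed for 6 of the 8 members, 34 probes of 30279 inside genes, so that 6 of 5490 genes with a value on all arrays were members. MFA1 and MFA2, whose reading frames are very short, had no inside probe and are described only through probes beside them. DNA sequences of these genes and of their promoters were not analysed here.

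Haploid yeast has 2 mating types, a and alpha, and each transcribes a small set of genes that the other keeps off. An a cell secretes a-factor and carries the receptor for alpha-factor, and an alpha cell does the reverse. The a-specific genes are on by default through the factor Mcm1 and are repressed in alpha cells by the alpha2 protein, while the alpha-specific genes need the alpha1 activator. RNA polymerase II bound along such a gene therefore reads whether its class is transcribed in the culture.

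The study compared where 2 subunits of RNA polymerase II sit in the genome, Rpb3, a core subunit, and Rpb4, which forms a detachable stalk with Rpb7. The Rpb3 group was 2 arrays of an S288c strain with TAP-tagged Rpb3, and the Rpb4 group was 2 arrays of an S288c strain with TAP-tagged Rpb4. TAP is an affinity tag that binds IgG beads. All cultures were grown in YPD at 25 °C to log phase, with an optical density of about 0.8, and fixed for 20 min in 1% formaldehyde. The labels give neither the mating type of the strains nor any other allele, and no untagged strain was available as a background. Nor do they say that a group's 2 arrays stem from different cultures, and p-values then measure only the spread between these arrays, which may be technical. The immunoprecipitate (IP) carried Cy5 and the whole-cell extract (WCE) Cy3 on every array, so a dye effect does not cancel.

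Values are log2(IP/WCE), centred on the median probe of each array, and averaged over the probes inside a gene. A value of 0 marks the median probe, which may itself carry polymerase, and each unit above it is a doubling. Dividing by the extract at the same probe removes much of the difference between probes in how well they hybridise, though not all of it. A value is an average over the culture, so a share of cells that transcribe a gene and the level per cell cannot be told apart. The median ratio of spot to background was 72.9 to 126 for the IP and 151 to 168 for the WCE. Across all genes, which are not independent of each other, the values correlated at 0.930 within the Rpb3 pair, 0.954 within the Rpb4 pair and 0.828 to 0.887 between the groups.

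On all 4 arrays the a-specific genes lay above the median probe and the alpha-specific STE3 below it. Of the 6 measured members, 5 passed limma's test above the median probe (Benjamini-Hochberg adjusted p below 0.05 over 5490 genes) for Rpb3, and the same 5 did for Rpb4. The background for this call was wide, because 38.4% of all genes passed above for Rpb3 and 37.9% for Rpb4. STE3 passed below in both groups, as did 29.2% of all genes for Rpb3 and 25.7% for Rpb4. The split depends on where 0 is set. With the arrays centred on the median of 28 meiosis and sporulation genes, 4895 genes passed above and 80 below for Rpb3, and 4939 above and 74 below for Rpb4. The median gene then read 0.64 in both groups, and the 5 a-specific members still passed above and STE3 below. The normexp setting corrected the raw spot and background intensities, so it also dropped the authors' normalization. With it the same members passed, but the levels of the a-specific genes moved up. Whether the background step or the dropped normalization moved them was not tested. For Rpb3, STE2 went from 3.04 to 3.93, BAR1 from 1.21 to 2.23, AGA2 from 1.09 to 1.87, STE6 from 0.74 to 1.34 and ASG7 from 0.24 to 0.74. The median of all genes moved far less, from 0.03 to 0.16. The median over the measured members was 0.92 for Rpb3 and 0.87 for Rpb4, against medians of 0.03 and 0.05 over all genes.

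**Figure D1:**
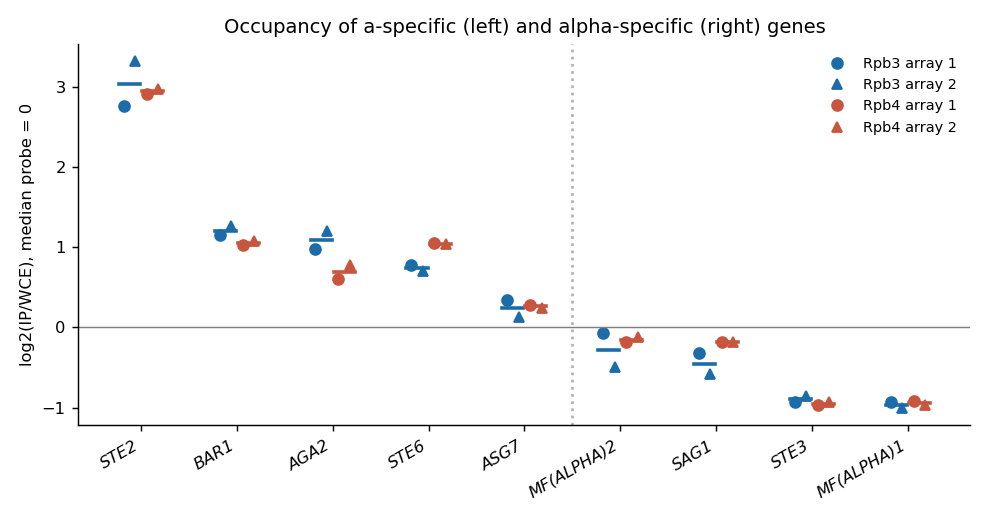
log2(IP/WCE) of the 6 measured members and of the other alpha-specific genes on each of the 4 arrays, with the mean of each group. STE2 stood near 3, BAR1, AGA2 and STE6 between 0.60 and 1.26, ASG7 between 0.13 and 0.34, and STE3 below -0.86 on every array.

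The gene of the receptor for alpha-factor, STE2, stood among the genes with the highest log2(IP/WCE). Its 5 inside probes lie at chr6:82805-83756, in the coordinates of the deposited files, whose genome build is not given in the sources used here. STE2 read 2.77 and 3.32 on the Rpb3 arrays and 2.91 and 2.98 on the Rpb4 arrays. All 4 values were high, and the groups overlapped. The means were 3.04 ± 0.14 (SE, n = 2) for Rpb3, with a limma adjusted p of 0.0003, and 2.95 ± 0.14 (n = 2) for Rpb4, with a limma adjusted p of 0.000437. Here and below, each SE is limma's, from a spread per gene shared by all 4 arrays and moderated across genes. It is therefore equal in both groups and is not the spread of either pair of arrays. On the linear scale STE2 was 8.25-fold and 7.72-fold above the median probe. That placed it above 99.5% of genes for Rpb3 and above 99.7% for Rpb4, at ranks 28 and 18. The ratio also holds a low extract signal at STE2. Against the median probe, the extract alone read -0.95 and -1.04 on the Rpb3 arrays and -1.23 and -1.31 on the Rpb4 arrays. The IP alone read 1.77 and 2.27 on the Rpb3 arrays and 1.65 and 1.63 on the Rpb4 arrays. The part of the low extract in these ranks was not tested.

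The genes whose values over the 4 arrays came nearest to those of STE2, by Euclidean distance, were CTR2 at 0.288, PGK1 at 0.294 and GCN4 at 0.322. PGK1 encodes the glycolytic enzyme phosphoglycerate kinase, CTR2 a copper transporter and GCN4 the activator of amino acid synthesis genes. CTR2 read 3.02 on 2 probes and PGK1 3.16 on 6 probes for Rpb3. Whether the probes of CTR2 also read a neighbouring gene was not tested.

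Along STE2 the signal began abruptly at its 5′ end. The promoter is shared with the divergent gene GYP8. The probe at position -336, counted in bp from the annotated start of STE2, read 0.08 for Rpb3 and -0.15 for Rpb4. The next probe, at position -10, read 2.84 and 2.49. Neither value at -336 passed limma's test over 41563 probes, and both at -10 did, with adjusted p of 0.000377 and 0.000817. Probes passed above the median on 28.5% of the array for Rpb3 and on 26% for Rpb4. All 5 inside probes of STE2 passed in both groups, and they ran from 2.51 to 3.37 for Rpb3 and from 2.50 to 3.20 for Rpb4.

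Toward the 3′ end of STE2 the signal did not fall at the end of the gene. The downstream probe at position 1344 read 2.50 for Rpb3 and 2.54 for Rpb4. The probes beyond it lie in the 3′ part of BST1, which is transcribed toward STE2, and read 3.22 and 3.01 at position 1611, then 2.56 and 2.20 at 1788, 0.98 and 1.41 at 2051, and 0.36 and 0.76 at 2344. BST1 as a whole read 0.55 and 0.64, and GYP8 on the other side read -0.12 and 0.13. The high stretch thus covered STE2 and the near end of one neighbour. With sheared fragments of about 400 to 500 bp, probes about 290 bp apart share fragments, so a probe also reads DNA bound next to it.

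**Figure D2:**
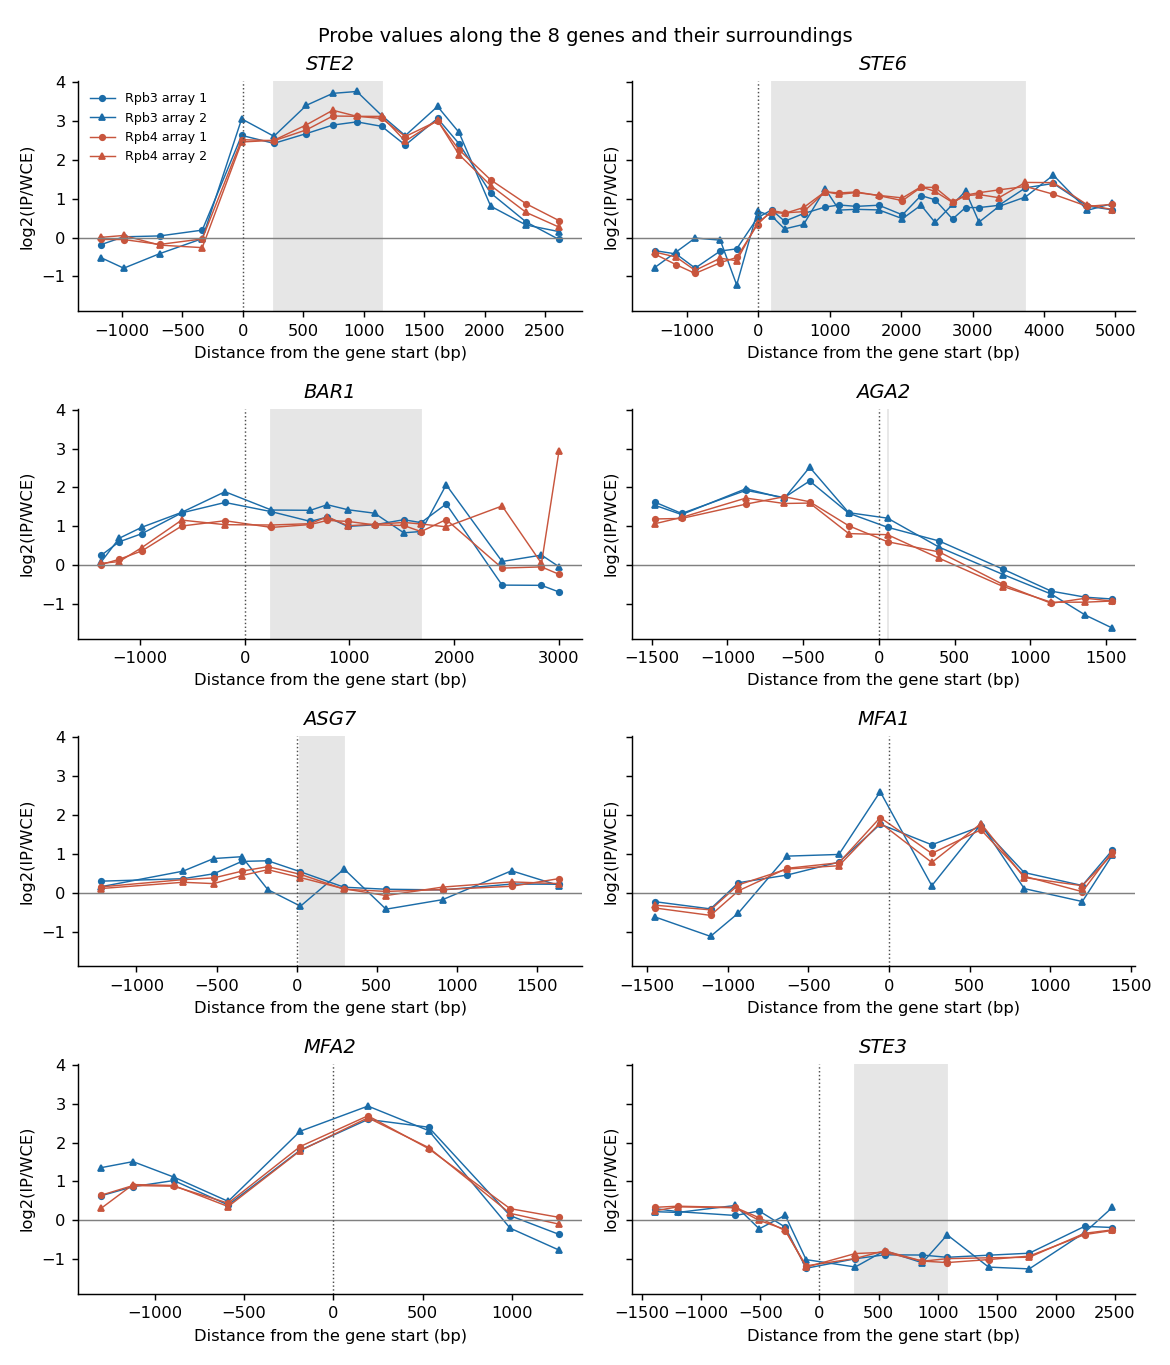
log2(IP/WCE) of single probes against distance in bp from the annotated start of each member, 1 line per array, with the span of the inside probes shaded. STE2 rises between positions -336 and -10, STE6 keeps a level near 1, AGA2 lies on a decline that starts at its promoter probe at -457, and STE3 is low from position -113 onward.

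STE6 encodes the ABC transporter that exports a-factor. Its 15 inside probes at chr11:42526-46139 made it the most densely measured member. STE6 read 0.79 and 0.70 on the Rpb3 arrays and 1.05 and 1.04 on the Rpb4 arrays. Both Rpb4 arrays were higher than both Rpb3 arrays. The means were 0.74 ± 0.04 (SE, n = 2; limma adjusted p = 0.000463) for Rpb3 and 1.05 ± 0.04 (n = 2; limma adjusted p = 0.000366) for Rpb4. These placed STE6 at rank 778 for Rpb3 and rank 379 for Rpb4.

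All 15 probes inside STE6 passed above the median probe in both groups, between 0.32 and 1.16 for Rpb3 and between 0.63 and 1.37 for Rpb4. Upstream, the probe of the promoter shared with CBT1 at position -304 read -0.75 and -0.55, and the probe at -12 read 0.60 and 0.36. The rise therefore fell within one probe interval of the start of STE6, as it did for STE2. CBT1 itself was low, at -0.45 and -0.63. On the 3′ side lies the end of UBA1, which encodes the ubiquitin-activating enzyme and is transcribed toward STE6, and its nearest probe read 1.50 and 1.26.

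The 2 genes for the a-factor precursor, MFA1 and MFA2, had no inside probe, but the probes flanking both were high. At MFA1 on chromosome 4, the promoter probe at position -54 (chr4:1385080-1385139) read 1.76 and 2.60 on the Rpb3 arrays and 1.93 and 1.80 on the Rpb4 arrays. Its group means were 2.18 and 1.87, with limma adjusted p of 0.0018 and 0.0033. The probe at -310 read lower, 0.89 and 0.73.

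Downstream of MFA1 the profile was uneven. The probe at position 266, which the files assign to the promoter of MRPL28, read 1.23 and 0.18 on the Rpb3 arrays and 1.01 and 0.78 on the Rpb4 arrays, so the 2 Rpb3 arrays disagreed there by more than at the neighbouring probes. The probe at 571 read 1.74 for Rpb3 and 1.70 for Rpb4, and the probe at 839 read 0.31 and 0.41. MRPL28, the next gene, which encodes a mitochondrial ribosomal protein, read -0.02 and 0.11. At position 266 the extract signal alone was 0.89 ± 0.22 higher in the Rpb4 group on the log2 scale, with a limma adjusted p of 0.0651, and its part in that probe's ratio was not tested.

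At MFA2 on chromosome 14, the downstream probe at position 194 (chr14:352575-352634) read 2.60 and 2.94 on the Rpb3 arrays and 2.69 and 2.64 on the Rpb4 arrays. Its means of 2.77 and 2.66 had limma adjusted p of 0.000377 and 0.000817. The promoter probe at -186 read 2.05 and 1.84, and the probe at 534, inside the convergent gene MPF1, read 2.35 and 1.86. The signal was back at -0.04 and 0.24 by position 990. MPF1 averaged 0.06 and 0.23 over its 6 probes, and YNL146W on the other side read 0.44 and 0.40. The high stretch at MFA2 was thus 3 probes wide, and among the members its highest probe came closest to those of STE2.

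BAR1 encodes the secreted protease with which a cells degrade alpha-factor. It has 7 inside probes at chr9:322565-324053. BAR1 read 1.15 and 1.26 on the Rpb3 arrays and 1.03 and 1.08 on the Rpb4 arrays. Both Rpb3 arrays were a little higher than both Rpb4 arrays. The means were 1.21 ± 0.05 (SE, n = 2; limma adjusted p = 0.000239) and 1.06 ± 0.05 (n = 2; limma adjusted p = 0.000422), at ranks 418 and 378. All 7 inside probes passed in both groups, between 0.98 and 1.40 for Rpb3 and between 0.96 and 1.20 for Rpb4.

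The region around BAR1 was less clearly bounded than that around STE2 or STE6. The promoter probe at position -188 read 1.75 and 1.09, and SNL1, the gene upstream in the same orientation, read 1.35 and 1.08 on its 1 probe. The downstream probe at 1924 read 1.82 and 1.08. No step marked the start of BAR1, and the signal from SNL1 onward ran at a similar or higher level than in BAR1 itself. Beyond it, the 1 probe of the next gene, YIL014C-A, read -0.36 and 1.35, with an SE of 0.79. Around that gene, 4 probes at chr9:324768-325613 had almost no extract signal in the Rpb4 group, with Rpb4 minus Rpb3 differences between -6.87 and -5.06 on the log2 scale. BAR1 itself was not in that stretch.

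AGA2 encodes the adhesion subunit of a-agglutinin, which binds its partner on alpha cells. It rests on 1 inside probe, at chr7:436751-436808. AGA2 read 0.98 and 1.21 on the Rpb3 arrays and 0.60 and 0.78 on the Rpb4 arrays. Both Rpb3 arrays were higher than both Rpb4 arrays. The means were 1.09 ± 0.08 (SE, n = 2; limma adjusted p = 0.000842) and 0.69 ± 0.08 (n = 2; limma adjusted p = 0.00313), at ranks 467 and 683.

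The probes between AGA2 and the ribosomal protein gene RPL24A, whose 3′ end faces the AGA2 promoter, were higher than AGA2 itself. RPL24A read 1.95 for Rpb3 and 1.65 for Rpb4, and the AGA2 promoter probe at position -625 read 1.73 and 1.67. The promoter probe at -457 read 2.17 and 2.52 on the Rpb3 arrays and 1.63 and 1.60 on the Rpb4 arrays. For Rpb3 it was thus the highest probe of this stretch, and for Rpb4 it was level with its neighbours on the RPL24A side. From there the values fell, to 1.34 and 0.91 at -199, 1.09 and 0.69 at 57, and 0.54 and 0.26 at 398. The next gene, HOP2, a meiotic gene, read -0.44 and -0.74. What part of the values at AGA2 and its promoter belongs to AGA2 rather than to RPL24A was not tested.

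ASG7 encodes a protein that dampens pheromone signalling after mating. Its 2 inside probes at chr10:101369-101699 read weakly. ASG7 read 0.34 and 0.13 on the Rpb3 arrays and 0.28 and 0.25 on the Rpb4 arrays. All 4 values were positive and small, and the groups overlapped. The means were 0.24 ± 0.06 (SE, n = 2; limma adjusted p = 0.0300) and 0.26 ± 0.06 (n = 2; limma adjusted p = 0.0237), at ranks 1891 and 1740. Neither of its probes passed limma's test by itself in either group. Without the first Rpb4 array the adjusted p for ASG7 became 0.0898 for Rpb3 and 0.233 for Rpb4, and without the second it became 0.0898 and 0.185, so that ASG7 no longer passed. Its promoter probe at -342 was higher than the gene, at 0.87 and 0.50. The neighbours TOH1, at 0.18 and 0.21, and SET2, a histone methyltransferase gene at 0.08 and 0.05, were near the level of ASG7.

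STE3 encodes the receptor for a-factor, which alpha cells carry. Its 4 inside probes lie at chr11:113519-114355. STE3 read -0.93 and -0.86 on the Rpb3 arrays and -0.97 and -0.93 on the Rpb4 arrays. All 4 values were low, and the groups overlapped. The means were -0.89 ± 0.04 (SE, n = 2; limma adjusted p = 0.000318) and -0.95 ± 0.04 (n = 2; limma adjusted p = 0.000414). STE3 was at rank 5444 for Rpb3 and rank 5472 for Rpb4, close to the bottom of the genes with a value in that group.

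All 4 inside probes of STE3 passed below the median probe in both groups, as did 24.7% of all probes for Rpb3 and 21.2% for Rpb4. The values ran from -1.09 to -0.66 for Rpb3 and from -1.05 to -0.80 for Rpb4. The low stretch began upstream, at position -113, with -1.12 and -1.19, while the probe at -290 read -0.02 and -0.25. It went on into the promoter of COY1, where the probe at 1431 read -1.05 and -0.99. The flanking genes were near the median probe, COY1 at 0.23 and 0.25 and LST4 at 0.10 and 0.16. The genes with values nearest to those of STE3 were ECM23 at a distance of 0.0605, DAL1 at 0.0788 and MND1 at 0.0998. DAL1 encodes allantoinase, of the breakdown of a poor nitrogen source, and MND1 a meiotic recombination protein.

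The other alpha-specific genes were low as well, though less uniformly. MF(ALPHA)1, the main gene for the alpha-factor precursor, read -0.97 for Rpb3 and -0.94 for Rpb4 on its 1 probe, with limma adjusted p of 0.000288 and 0.000422. SAG1, which encodes alpha-agglutinin, read -0.45 and -0.18, with limma adjusted p of 0.00686 and 0.0937. MF(ALPHA)2, the minor alpha-factor gene, read -0.28 and -0.15 on its 1 probe and passed in neither group. The probes that the files assign to its promoter were higher the farther they lay from it, at 0.08 and 0.14 at position -100, 0.59 and 0.58 at -469, 1.88 and 1.67 at -640, and 3.70 and 3.10 at -854. The nearest probe inside a gene on that side lies in MMS2, of DNA repair, and read 2.63 and 2.15. Which transcript the probe at -854 reads was not tested. The probe at -854 was higher than any probe beside MFA1 or MFA2, so a high flanking probe does not by itself assign polymerase to the gene it is named for. With STE3, 3 of 4 alpha-specific genes passed below the median probe for Rpb3, beside 29.2% of all genes. For Rpb4, 2 of 4 did, beside 25.7% of all genes, and no alpha-specific gene passed above in either group. This list, like the members, was chosen with results of these data known.

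On every array each of the 5 measured a-specific genes was higher than each of the 4 alpha-specific genes. The gap between the lowest a-specific and the highest alpha-specific gene was 0.41 and 0.63 on the Rpb3 arrays and 0.46 and 0.37 on the Rpb4 arrays. The 2 receptor genes were 3.69 and 4.18 apart on the Rpb3 arrays and 3.89 and 3.91 apart on the Rpb4 arrays, STE2 being the higher. The medians of the a-specific genes were 1.09 for Rpb3 and 1.05 for Rpb4, and those of the alpha-specific genes were -0.67 and -0.56.

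**Figure D3:**
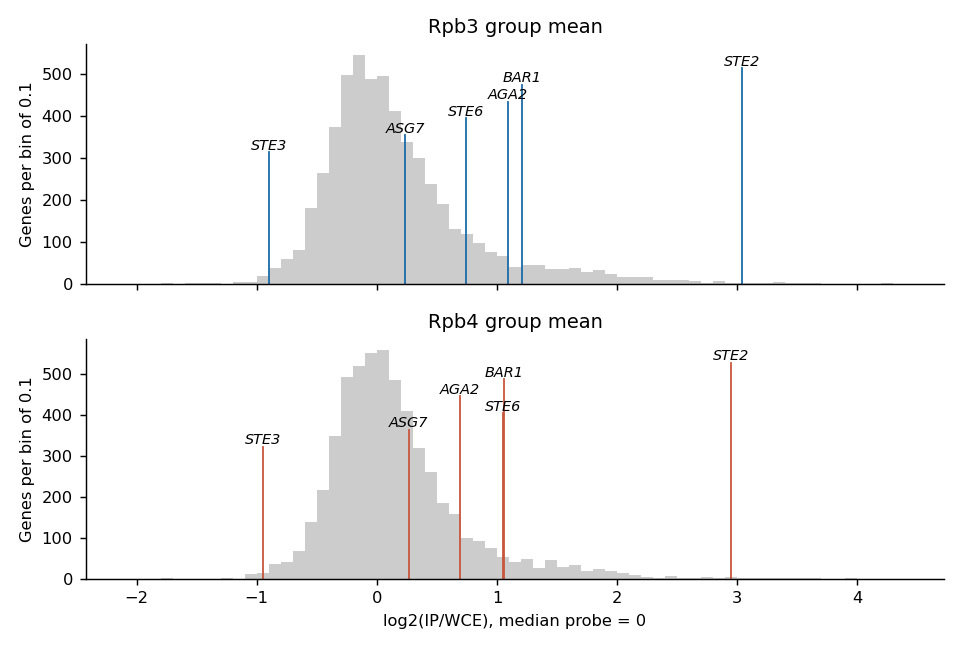
Distribution of log2(IP/WCE) over all genes for Rpb3 and Rpb4, with the measured members marked. STE2 stands in the far upper tail at 3.04 and 2.95, and STE3 at the lower end at -0.89 and -0.95.

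Among the members, the order of levels was nearly the same for both subunits. For Rpb3 it ran STE2, BAR1, AGA2, STE6, ASG7 and STE3, and for Rpb4 it ran STE2, BAR1, STE6, AGA2, ASG7 and STE3. Neighbours whose arrays overlapped were BAR1 and AGA2 for Rpb3, 0.11 apart, and BAR1 and STE6 for Rpb4, 0.01 apart. The step from STE2 to BAR1 was 1.84 for Rpb3 and 1.89 for Rpb4, and the step from ASG7 down to STE3 was 1.13 and 1.21.

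Within the longer members, the 3′ part was set against the 5′ part in genes with at least 4 probes. STE2 was higher in its 3′ part by 0.41 for Rpb3 and 0.44 for Rpb4, more than in 77.0% and 76.9% of 3538 such genes. BAR1 went the other way, with a 3′ minus 5′ difference of -0.30 and -0.06, larger than in only 5.14% and 9.55% of genes. STE6 had 0.16 and 0.23, close to the medians over all genes of 0.18 and 0.25. In STE3, which lay below the median probe, the sign differed between the groups, 0.14 for Rpb3 and -0.18 for Rpb4. The Rpb3 arrays read 0.02 and 0.26, so the positive value rested mainly on the second.

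The direct comparison of the 2 subunits asked whether Rpb4 and Rpb3 were distributed alike over these genes. No member passed limma's test of the difference after adjustment, where 3.39% of all genes did, 48 above and 138 below. That split was 65 and 105 with the arrays scaled to one spread and 188 and 198 after quantile normalization, where STE2 (0.39) and STE6 (0.50) passed with limma adjusted p of 0.0407 and 0.0486. At an unadjusted p below 0.05, STE6 and AGA2 passed, with p of 0.0065 and 0.0234 from limma, beside 21.8% of all genes. The arrays of the groups did not overlap for STE6, AGA2 and BAR1, and this held for 60.5% of all genes.

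STE6 was higher in the Rpb4 group by 0.30 ± 0.06 (SE, n = 2 against 2), a 95% interval of 0.14 to 0.47 and a limma adjusted p of 0.0913. Each of its 15 probes had the higher mean in the Rpb4 group, by 0.04 to 0.56, but these probes share the same arrays and chromatin. AGA2 had a difference of -0.40 ± 0.12 (interval -0.71 to -0.09; limma adjusted p = 0.166). It was the most negative difference among the members, and rests on the 1 probe inside the gene. With normexp correction of the raw intensities, in place of the authors' normalized ones, it was -0.94 and passed with a limma adjusted p of 0.0326. BAR1 had -0.15 ± 0.07 (interval -0.34 to 0.04; limma adjusted p = 0.298), and its sign turned with scaling (0.019) and quantile normalization (0.097). With normexp it was -0.43 (limma adjusted p = 0.0682).

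As for BAR1, the intervals of the remaining differences included both signs. STE2 had a Rpb4 minus Rpb3 difference of -0.10 ± 0.20 with an interval of -0.64 to 0.45, which turned to 0.37 with scaling and 0.39 with quantile normalization. STE3 had -0.06 with an interval of -0.22 to 0.11, and ASG7 had 0.03 with an interval of -0.22 to 0.27. The wide interval of STE2 comes with its 2 Rpb3 arrays, which lay 0.56 apart, against 0.07 for its Rpb4 arrays. Without the first Rpb3 array, 5 of the 6 members passed the test of the difference, STE3 being the exception, while over all genes 1843 passed above and 1592 below. Without the second, STE2 and STE6 passed, beside 579 genes above and 864 below over the genome. Without the second Rpb3 array STE2 was higher in the Rpb4 group, by 0.18, and without the first its difference was -0.37, so 1 library decides the direction.

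**Figure D4:**
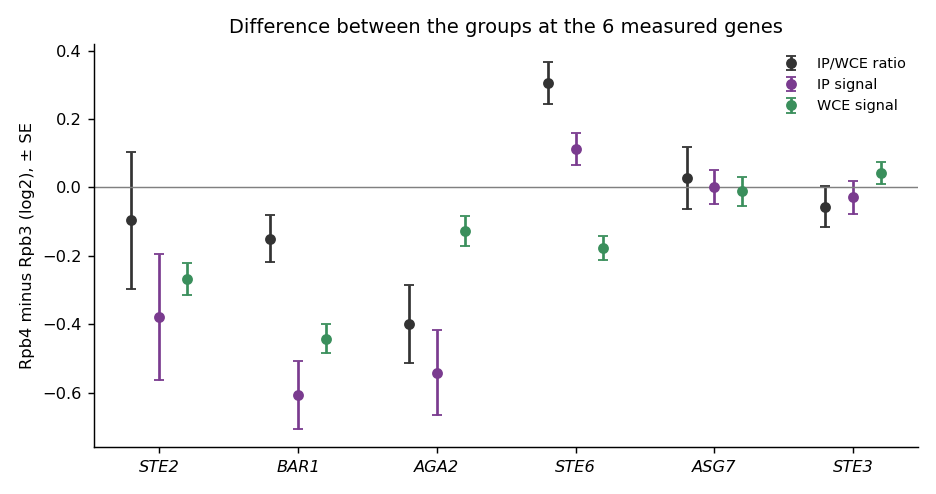
Rpb4 minus Rpb3 difference of the 6 measured members in the log2(IP/WCE) ratio, the IP signal alone and the WCE signal alone, with bars of ± SE. The 95% intervals of the ratio from limma are not drawn. Those of STE6 (0.14 to 0.47) and AGA2 (-0.71 to -0.09) do not cross 0, and those of the other 4 do.

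The ratio also carries differences in the extract. For BAR1 the extract signal alone was lower in the Rpb4 group by 0.44 on the log2 scale (-0.44 ± 0.04; limma adjusted p = 0.00611), and such a difference passed for 8.76% of all genes. BAR1 shared this with its chromosome: the median extract difference was -0.42 over 197 genes of chromosome 9 and 0.007 over 5277 other nuclear genes. The IP signal of BAR1 alone differed by -0.61, so both channels were lower in the Rpb4 group, and the ratio differed by -0.15.

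STE2 also had less extract signal in the Rpb4 group, by -0.27 (limma adjusted p = 0.0368), and for STE6 the value was -0.18 (limma adjusted p = 0.0513). In the IP channel alone STE6 differed by 0.11 and STE2 by -0.38, and neither passed (limma adjusted p = 0.272 and 0.32). Ratio, IP and extract were each centred on their own median, so the IP difference less the extract difference gives the ratio difference only nearly. Of the 0.30 in the ratio of STE6, more lay in the extract than in the IP. AGA2 had -0.13 in the extract and -0.54 in the IP, while ASG7 and STE3 moved by at most 0.04 in either channel.

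The other lists of mating genes showed a mixed picture. The counts of each list below stand beside the shares over all genes. These were 38.4% above and 29.2% below for Rpb3, and 37.9% above and 25.7% below for Rpb4. Of 15 genes of pheromone signalling, 7 passed above and 2 below the median probe for Rpb3, and 9 above and 2 below for Rpb4, with medians of 0.26 and 0.35. The highest were STE18, the G protein gamma subunit, at 1.22 and 0.88, and FAR1, which arrests the cell cycle, at 0.95 and 1.11. The lowest was STE50, an adaptor of the kinase cascade, at -0.50 and -0.34.

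Of 14 genes that pheromone is known to induce, 4 passed above and 6 below for Rpb3, and 4 above and 8 below for Rpb4, with medians of -0.12 and -0.18. AGA1, the anchor subunit to which the AGA2 product is bound, was highest at 1.00 and 0.85, followed by PRM4 at 0.55 and 0.57. FIG1, a membrane protein of mating cells, was lowest at -0.92 and -0.88. One gene of this list passed the test of the difference: PRM5, on chromosome 9, had a Rpb4 minus Rpb3 difference of -0.66 with a limma adjusted p of 0.0195. Over all genes, 3.39% passed that test.

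Of 9 genes for the maturation of pheromone, 3 passed above and 2 below in each group. STE14, which methylates a-factor, read 0.48 and 0.69, AXL1, a protease that trims it, read 0.30 and 0.30, and RCE1, another protease of that route, read -0.22 and -0.40. Of 15 genes of mating-type control, 10 had a value, and 3 passed above and 4 below for Rpb3 and 3 above and 5 below for Rpb4. MCM1 was highest at 0.86 and 0.91, followed by the corepressor gene CYC8 at 0.76 and 0.83, and SIR1, a silencing gene, was lowest at -0.37 and -0.50. The alpha genes of the mating-type locus and of the silent cassette were among the 5 without a value. HMRA1, the silent copy of the a1 gene, has the same sequence as the a1 gene that a cells carry at the mating-type locus, and its probes read both. It stood at -0.14 and -0.20, with limma adjusted p of 0.0641 and 0.0272.

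**Figure D5:**
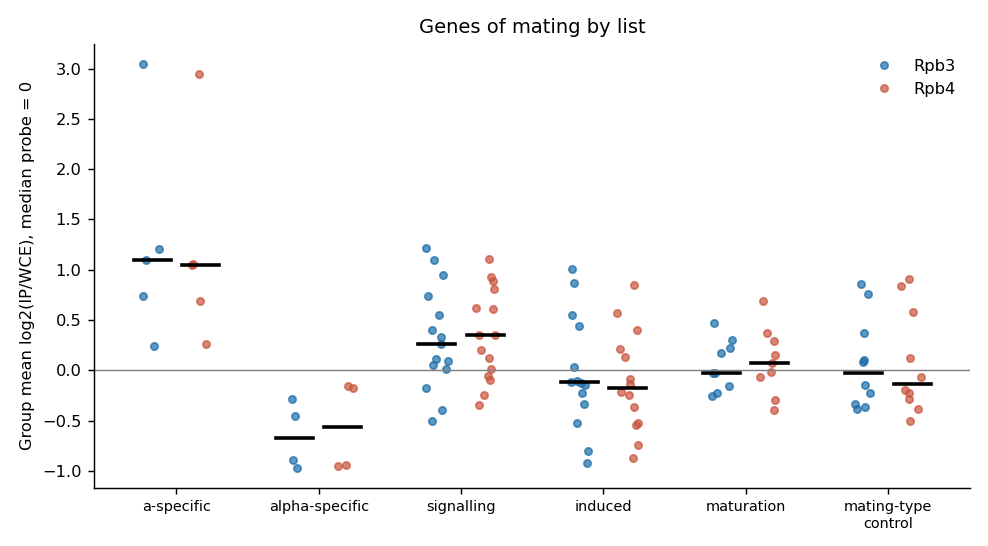
log2(IP/WCE) for Rpb3 and Rpb4 of the genes in each mating list, with 1 point per gene. The a-specific genes lie between 0.24 and 3.04, the alpha-specific genes between -0.97 and -0.15, and the other lists spread on either side of 0.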

How the data were processed

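For each of 41775 data probes, the deposited files give raw intensities of spot and background and the authors' normalized IP and WCE intensities, per the file headers. The submitters' processing notes name Agilent Feature Extraction 9.1. The genome build and the software of later steps were not given in the sources used here. Log2 ratios of the normalized intensities were centred on each array's median, and 3444 control spots and 81 to 179 excluded probes per array were left out. Inside probes were averaged per gene through the files' own annotation. limma 3.58.1 in R 4.3.3 was fitted to all 4 arrays with lmFit and eBayes (prior degrees of freedom 2.24, residual 2), Benjamini-Hochberg adjusted over 5490 genes or 41563 probes. On simulated data for the Rpb4 minus Rpb3 comparison over 5490 genes, 94% of 100 genes changed by 1 and 99% of 100 changed by 2 on the log2 scale were recovered, with 11 false calls. The simulated spreads came from the prior that limma fitted, with independent errors. Changes smaller than 1 were not simulated, and all member differences were smaller, so this recovery says nothing about them. All 4 arrays lay on 1 slide. The members and gene lists were chosen with earlier results of these data known. Named genes were all members, their flanking genes, the alpha-specific list, the 2 highest and the lowest gene of each other list, and the 3 nearest to STE2 and to STE3. PRM5 and HMRA1 were named after their values were seen. Gene names were checked against RefSeq, where 5478 genes matched. Alternatives were the centring, scaling, background, gene summary, probe choice, variance model, IP channel alone and each array left out. The background alternative, normexp, started from the raw intensities and so left out the authors' normalization.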

Additional observations from a re-analysis of the deposited data

How the results depend on the processing

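Under the 12 alternatives for occupancy, 5 members passed above the median probe in each group, or 4 where ASG7 was lost without either Rpb4 array, and 1 passed below. Of the single-member occupancy values, 140 of 144 kept their call and direction. Many of these values stayed exactly as they were, so this count overstates how firm they are. Keeping excluded probes, the probe choice, the variance model and leaving out an array of the other group moved no member's occupancy value. In other settings the sizes moved. With normexp, Rpb4 values went from 2.95 to 3.85 for STE2, 1.06 to 1.80 for BAR1, 0.69 to 0.93 for AGA2, 1.05 to 1.76 for STE6 and 0.26 to 0.78 for ASG7, and the difference of BAR1 went from -0.15 to -0.43. The count of members past the test of the Rpb4 minus Rpb3 difference, 0, became 2 after quantile normalization (STE2 0.39, limma adjusted p = 0.0407, and STE6 0.50, 0.0486) and 1 with normexp background (AGA2 -0.94, 0.0326). It ranged from 0 to 5 when 1 array was left out. The direction of the difference turned for STE2 with scaling to one spread (0.37), quantile normalization (0.39) and without the second Rpb3 array (0.18, range -0.37 to 0.18), for STE3 with normexp (0.19), for BAR1 with scaling (0.019) and quantile normalization (0.10), and for ASG7 without the second Rpb3 array (-0.077, range -0.077 to 0.13). The cause was not tested. Over all genes the calls of the difference, 48 above and 138 below, became 188 and 198 with quantile normalization, 103 and 277 with normexp, 1843 and 1592 without the first Rpb3 array, 579 and 864 without the second, 22 and 29 without the first Rpb4 array, and 0 and 0 without the second (404 genes at an unadjusted limma p below 0.05). Calls of Rpb4 occupancy, 2078 above and 1411 below, became 1064 and 307 without the first Rpb4 array and 1006 and 344 without the second. Where a group had 1 array, that array was assumed to vary like the other group. Centring on meiosis genes raised the median gene to 0.64 for Rpb3, and STE3 then read -0.29 and -0.36 and still passed below. Keeping excluded probes could change no value and is no test. On each array they were as many as the probes without a positive signal, which have no log2 ratio. No paired analysis was possible because the labels give no replicate numbers shared between groups. The search for promoter motifs was not run. With 2 arrays a group, precision is limited by their number.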
